A study of Homo sapiens with 10 samples.

Results

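The cytosolic ribosomal protein genes encode the proteins of the ribosome that works in the cytoplasm. They were taken here by symbol: RPL or RPS followed by a number, with an A, X or L where the symbol has one, together with RPLP0, RPLP1, RPLP2 and RPSA. The rule matched 84 of the 46427 genes in the count table. Of these, 43 belong to the large subunit, 31 to the small subunit, 3 to the stalk and 7 are paralogs of another member. In all, 82 members had enough counts for a test. The paralog RPL10L, a testis gene, had no count in any library, which allows a level of up to 0.0411 to 0.0524 CPM (counts scaled to a common library total; 3 counts per library). RPL3L, the paralog of heart and skeletal muscle, had at most 8 counts in a library. FAU encodes a ribosomal protein fused to a ubiquitin-like protein, is not matched by the rule, and is given among the translation genes.

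A ribosome needs its proteins in fixed proportion, so their genes are usually transcribed together and at a high level. Most of their mRNAs begin with a run of pyrimidines, the terminal oligopyrimidine (TOP) motif, through which mTOR signalling and the binding protein LARP1 control their translation. Neural progenitors are known for active ribosome production, which declines as neurons form. Free RPL5 and RPL11 bind MDM2, the inhibitor of p53, when assembly of the large subunit is disturbed.

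RNA came from spheres of ReNcell VM cells, a human neural progenitor line that was immortalised, which differentiated for 6 days in the presence of a phthalate ester or of vehicle. There were 5 groups of 2 libraries: DEP (diethyl phthalate), DProP, DPP and Mix, each labelled 100 µM, and vehicle (0.1% DMSO). All groups share the cell line and the differentiation medium, and each library pooled the RNA of 6 neurospheres. DProP usually stands for di-n-propyl phthalate, DPP for any of several phthalates, and what Mix contains is not in the labels. Nothing in the labels tells whether both libraries of a group stem from separate cultures, so the p-values cover only the spread of these libraries, which may be technical.

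Libraries held 57222381 to 72973100 counts. Their RNA was enriched by exome capture, so the level of a gene also reflects its capture, and genes are ranked by level only per kilobase of coding sequence. CPM without length is used to follow a gene across libraries and as a measure of how many counts stand behind it. The treated libraries stood apart from the vehicle libraries as a whole. Genes with a count numbered 22905 to 23646 per treated library and 21603 and 21500 in the vehicle libraries. Mitochondrially encoded genes took 0.296% to 0.354% of counts in treated libraries and 0.116% and 0.149% in vehicle, and nuclear-encoded rRNA genes 5.03% to 6.10% in treated libraries and 4.16% and 4.94% in vehicle. MALAT1, an abundant nuclear non-coding RNA, took 0.342% to 0.394% in treated libraries and 1.25% and 0.946% in vehicle. The part of these differences in the results below was not tested, and any batch shared by the vehicle libraries alone cannot be told apart from treatment.

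Promoters were read from RefSeq (GRCh38.p14), where 67 of the 84 members had an entry. The windows shown run from 50 bases before to 20 bases after an annotated transcript start, so the last 20 bases are the first of exon 1. They are shown for the members with the largest decreases, for RPL12 and RPL7L1, which rose, and for RPL37A, so that the start regions of genes with opposite changes can be compared. Capitals mark the longest run of C and T that begins with C within 10 bases to either side of the annotated start. A run of at least 7 bases was counted as a TOP run.
RPS15, chr19:1438346-1438415, + strand: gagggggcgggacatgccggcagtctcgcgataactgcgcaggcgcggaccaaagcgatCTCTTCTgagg
RPL38, chr17:74203628-74203697, + strand: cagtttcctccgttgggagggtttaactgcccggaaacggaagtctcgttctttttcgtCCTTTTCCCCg
RPLP0, chr12:120201092-120201161, - strand: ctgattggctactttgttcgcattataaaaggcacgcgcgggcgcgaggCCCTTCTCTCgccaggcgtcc
RPLP1, chr15:69452768-69452837, + strand: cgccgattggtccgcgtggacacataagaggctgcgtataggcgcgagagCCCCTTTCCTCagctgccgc
RPS6, chr9:19380217-19380286, - strand: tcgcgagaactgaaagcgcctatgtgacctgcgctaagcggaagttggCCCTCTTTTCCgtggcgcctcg
RPS25, chr11:119018324-119018393, - strand: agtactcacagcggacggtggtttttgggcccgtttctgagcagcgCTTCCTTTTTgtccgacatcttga
RPL37A, chr2:216498794-216498863, + strand: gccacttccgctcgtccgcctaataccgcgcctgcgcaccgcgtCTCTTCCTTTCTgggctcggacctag
RPL12, chr9:127451387-127451456, - strand: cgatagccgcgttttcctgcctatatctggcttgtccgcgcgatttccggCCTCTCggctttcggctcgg
RPL7L1, chr6:42879566-42879635, + strand: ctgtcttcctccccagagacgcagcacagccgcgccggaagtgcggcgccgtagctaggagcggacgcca

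The runs of RPS15, RPL38, RPLP0, RPLP1, RPS6, RPS25 and RPL37A have 7 or more bases, the run of RPL12 has 6, and RPL7L1 has none that long. A TOP run was present near a start of 53 of the 67 members (79.1%), against 15.9% of the 27305 genes with an entry. The letters CCGGAA, the core of an ETS factor site, were found on either strand in the 300-base window (250 bases before to 50 after the start) of 39 members (58.2%), against 20.1% of all genes. AAGATGG, the core of a YY1 site, was found in 9 members (13.4%), against 7.11% of all genes. A match describes the letters and not a site in use.

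Ribosomal protein genes as a family took a smaller share of the counts in every treated library than in either vehicle library. Their summed share was 1.05% and 1.10% in the DEP libraries, 0.936% and 0.981% in DProP, 1.01% and 0.941% in DPP, 0.957% and 0.992% in Mix, and 1.35% and 1.42% in vehicle. The treated and vehicle ranges did not overlap, and the DEP pair lay above the other treated pairs. The mean was 0.995% ± 0.0558 (SD, n = 8 treated libraries) and 1.39% ± 0.0490 (SD, n = 2 vehicle libraries), a difference of -0.391 percentage points. An exact two-sided permutation test over libraries gave p = 0.0222, the smallest that its 45 assignments allow. The test and the SD treat each library as a separate unit and pool the different treatments. Libraries of a group share a treatment and may share a culture, so this p-value describes these libraries only. Kept together in their groups, the libraries would allow fewer assignments, and that test was not run. Without either vehicle library the smallest p that the design allows is 0.111, which was the value reached. The difference was -0.399 percentage points when rRNA and mitochondrially encoded genes were left out of the total, and -0.313 without RPLP0, the member with most counts. Wilson 95% intervals of these shares reached at most 0.00298 percentage points to either side and cover counting error only. In bulk RNA, fewer cells with a high ribosomal protein level and less of this RNA per cell cannot be told apart.

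**Figure D1:**
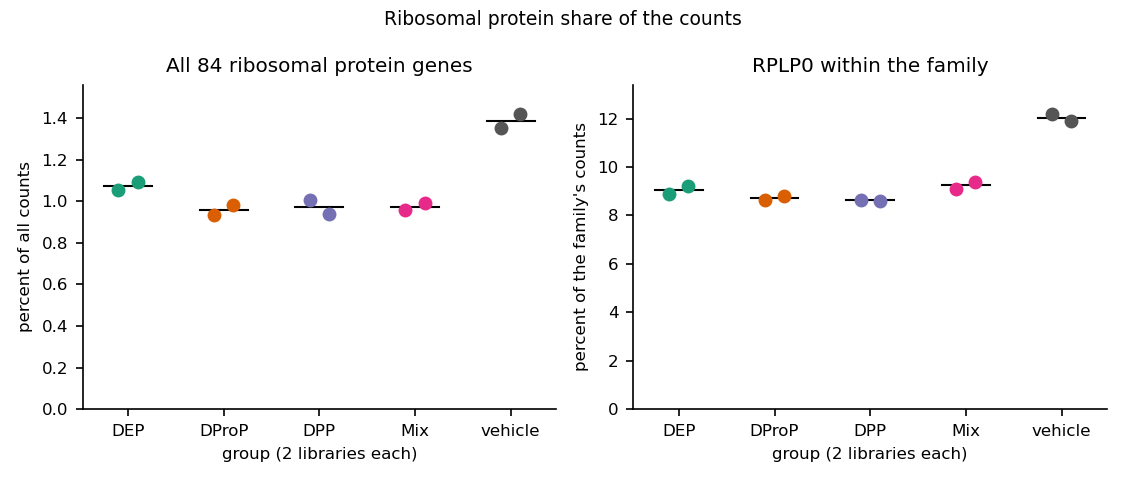
Left, the counts of the 84 ribosomal protein genes as a percent of all counts in each library (points; lines are group means). Right, RPLP0 as a percent of the counts of the family. Treated libraries lie between 0.936% and 1.10% on the left, against 1.35% and 1.42% in vehicle.

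The make-up of the family also differed, which does not depend on how libraries are scaled. RPLP0 held 8.61% to 9.38% of the family's counts in treated libraries and 12.2% and 11.9% in vehicle, with Wilson 95% intervals of at most 0.0753 percentage points to either side. RPL12 held 0.202% to 0.256% of them in treated libraries and 0.0845% and 0.0938% in vehicle. The counts of RPLP0 were 33.6 to 46.5 times those of RPL12 in treated libraries, against 144 and 127 times in vehicle. Large-subunit members summed had 1.46 to 1.51 times the counts of small-subunit members in treated libraries and 1.42 and 1.43 times in vehicle.

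Each treatment was compared with vehicle by edgeR's quasi-likelihood test over all 19465 tested genes, with Benjamini-Hochberg adjusted p-values below 0.05 as the threshold. After DEP, 50 of the 82 members fell, against 13.5% of all tested genes, and 2 rose, against 10.1%. After DProP, 66 fell (17.5% of all genes) and 2 rose (14.7%). After DPP, 60 fell (19.5% of all genes) and 4 rose (16.7%). After Mix, 63 fell (10.7% of all genes) and 2 rose (9.71%). The 4 comparisons share the vehicle libraries. The median log2 fold change of the members was -0.38 in DEP, -0.54 in DProP, -0.49 in DPP and -0.51 in Mix, whereas the median of all tested genes lay at 0.01, 0.02, 0.02 and 0.02.

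The changes were broad and mostly of moderate size. Tested against a minimum change of 1.5-fold, 5 members passed in DEP (2.00% of all genes), 18 in DProP (3.75%), 13 in DPP (5.82%) and 9 in Mix (1.70%). When libraries were scaled by their totals alone, which moved the median of all genes to 0.16, 0.19, 0.18 and 0.16, the family's median was -0.22, -0.36, -0.34 and -0.37. Pseudogene copies, of which 1441 have rows of their own, are a further limit. Their counts came to over 10% of the parent's in 15 members, with RPS26 (48.8%), RPL23A (30.6%) and RPL9 (28.4%) the highest, so the values of these members are uncertain. How reads that match several places were treated is not known, so a low percent does not show that a member is unaffected.

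**Figure D2:**
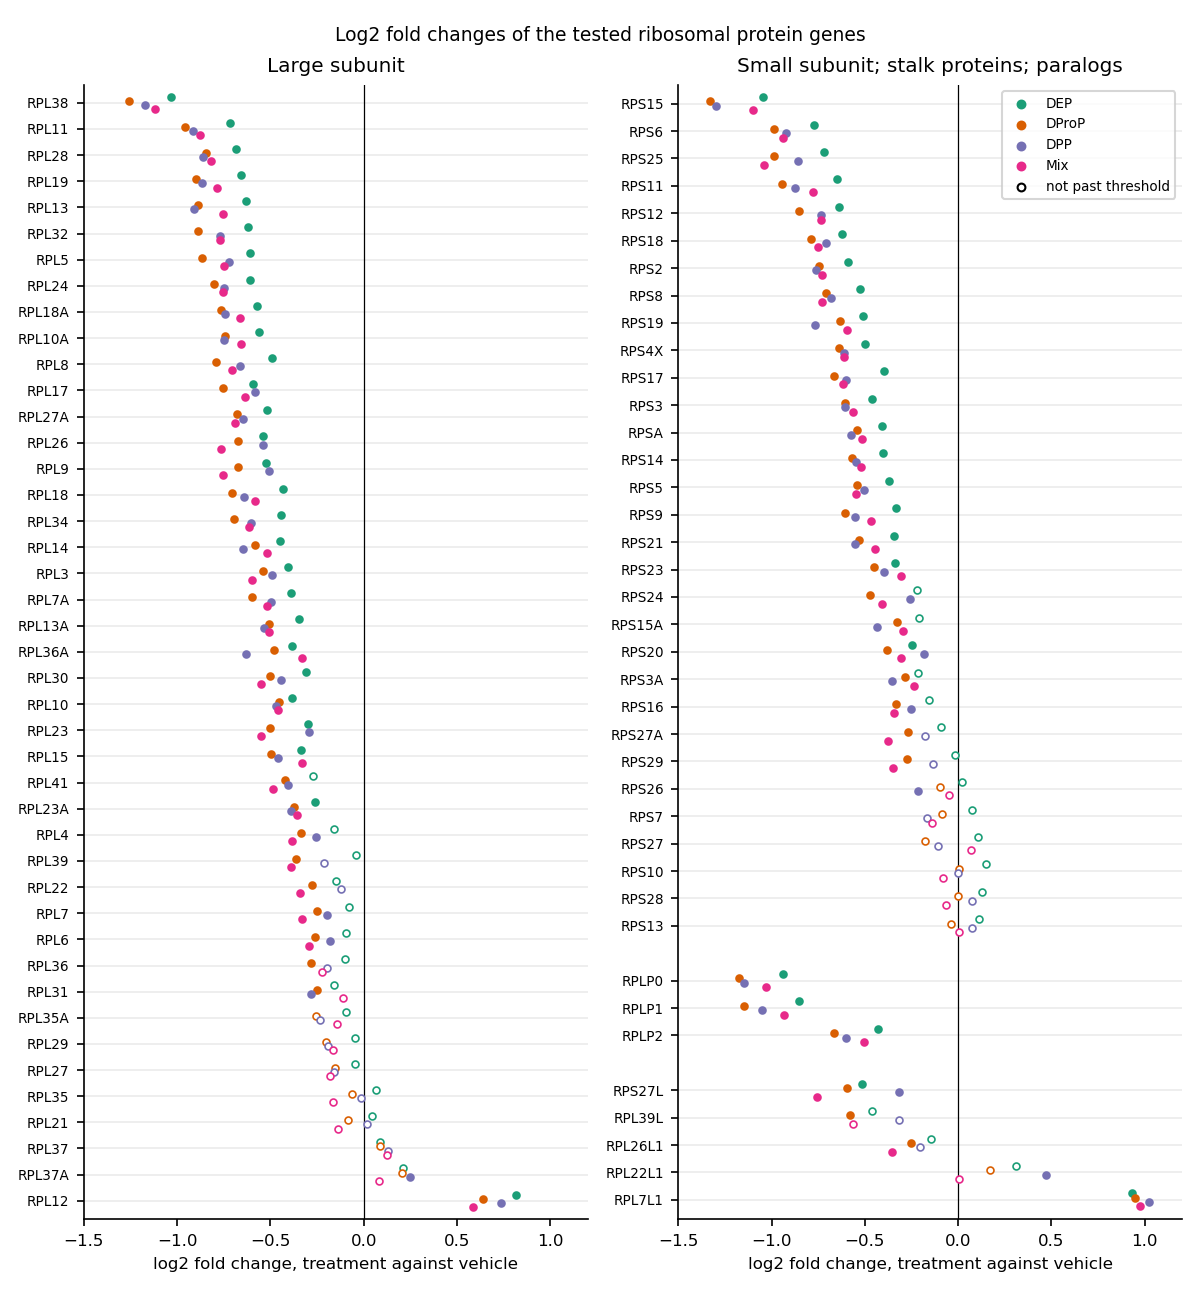
Log2 fold change of each of the 82 tested members against vehicle, in large-subunit genes on the left and in small-subunit genes, stalk genes and paralogs on the right. Each point is 1 treatment, filled where the adjusted p was below 0.05. Most points lie left of 0, and RPL12 and RPL7L1 lie right of it at 0.59 to 0.81 and 0.93 to 1.03.

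Decreases were more frequent among members with many counts, although RPL38 and RPS25, with means of 88.5 and 38.1 CPM, also had large ones. Among the 32 members with a mean above 100 CPM (counts per library scaled to a common total with TMM factors), 31 fell in DEP, 31 in DProP, 31 in DPP and 31 in Mix, with medians of -0.51, -0.69, -0.65 and -0.65. Of the 2552 other genes above that level, 33.3%, 37.6%, 37.5% and 28.6% fell, with medians of -0.11, -0.11, -0.10 and -0.07. Among the 50 members at 100 CPM or less, 19, 35, 29 and 32 fell, with medians of -0.16, -0.33, -0.25 and -0.35, whereas the 16831 other genes of that level had medians of 0.04, 0.05, 0.05 and 0.04. Across the 82 members the log2 fold change went down with the mean level, with a Spearman rank correlation of -0.62 in DEP, -0.60 in DProP, -0.64 in DPP and -0.56 in Mix. These are descriptions over genes that share the same libraries, and the level is averaged over those libraries as well. The rank correlation with the GC content of the coding sequence was -0.18, -0.21, -0.30 and -0.15, and with coding length -0.23, -0.22, -0.26 and -0.21.

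**Figure D3:**
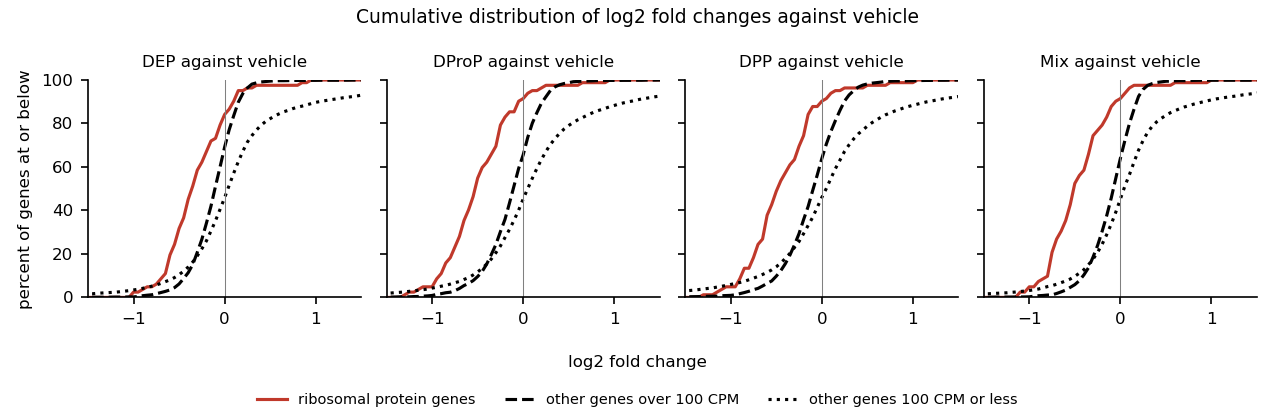
Percent of genes at or below each log2 fold change against vehicle, for the ribosomal protein genes (red), for other tested genes with a mean above 100 CPM (dashed) and for the remaining tested genes (dotted). The red curve runs left of both others over most of its range, with medians of -0.38 in DEP, -0.54 in DProP, -0.49 in DPP and -0.51 in Mix.

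Of the 3 stalk genes, RPLP0 and RPLP1 were among the members with the largest decreases, while RPLP2 fell by amounts near the family's median. The stalk is a flexible arm of the large subunit that calls translation factors to the ribosome. It consists of the scaffold RPLP0 and of the acidic proteins RPLP1 and RPLP2 bound to it. RPLP0 had 913 and 992 CPM in DEP libraries, 781 and 836 in DProP, 852 and 793 in DPP, 867 and 915 in Mix, and 1798 and 1848 in vehicle. Every treated library lay far below both vehicle libraries. The log2 fold change was -0.94 in DEP, -1.17 in DProP, -1.15 in DPP and -1.03 in Mix (SE 0.0656 to 0.0659, edgeR adjusted p = 1.26e-05, 1.9e-06, 1.26e-06 and 4.49e-06). RPLP0 has pseudogene counts of 9.93% of its own.

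RPLP1 had 302 and 340.3 CPM in DEP libraries, 261 and 264 in DProP, 298 and 263 in DPP, 278 and 331 in Mix, and 569 and 594 in vehicle. It fell by 0.86, 1.15, 1.05 and 0.93 on the log2 scale in DEP, DProP, DPP and Mix (edgeR adjusted p = 0.000101, 8.74e-06, 8.67e-06 and 5.05e-05). RPLP2 had 42.3 and 44.7 CPM in DEP libraries, 37.4 and 36.5 in DProP, 39.4 and 37.8 in DPP, 40.6 and 41.8 in Mix, and 55.1 and 62.1 in vehicle. It fell by less than its partners, with log2 fold changes of -0.43, -0.66, -0.60 and -0.51 (edgeR adjusted p = 0.00168, 6.47e-05, 8.26e-05 and 0.000679). The counts of RPLP0 were 2.77 to 3.17 times those of RPLP1 in treated libraries and 3.16 and 3.11 times in vehicle, so these genes kept about the same ratio. Against RPLP2 the ratio was 20.9 to 22.9 in treated libraries and 32.6 and 29.8 in vehicle, and the ranges did not overlap.

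In the small subunit, 19 of 31 tested genes fell in DEP, 25 in DProP, 24 in DPP and 25 in Mix, with medians of -0.34, -0.54, -0.55 and -0.46. RPS15, a protein of the subunit's head needed for export of its precursor from the nucleus, had the largest mean decrease of all members. It had 209 and 233 CPM in DEP libraries, 176 and 187 in DProP, 195 and 176 in DPP, 205 and 222 in Mix, and 448 and 466 in vehicle. All 8 treated libraries lay below both vehicle libraries, with a wide gap between them. The log2 fold change was -1.05 in DEP, -1.33 in DProP, -1.30 in DPP and -1.10 in Mix (SE 0.0746 to 0.0752, edgeR adjusted p = 1.26e-05, 1.9e-06, 1.26e-06 and 6.11e-06).

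RPS6, the protein phosphorylated by S6 kinase downstream of mTOR, had 253 and 254 CPM in DEP libraries, 214 and 223 in DProP, 238 and 219 in DPP, 224 and 227 in Mix, and 425 and 441 in vehicle. It fell by 0.77, 0.99, 0.92 and 0.94 on the log2 scale (edgeR adjusted p = 1.32e-05, 1.9e-06, 1.82e-06 and 3.28e-06). RPS25, used in initiation at certain internal ribosome entry sites, had 37.4 and 36.1 CPM in DEP libraries, 30.2 and 30.7 in DProP, 35.9 and 30.8 in DPP, 28.4 and 30.3 in Mix, and 58.4 and 62.6 in vehicle. It fell by 0.72, 0.99, 0.86 and 1.04 (edgeR adjusted p = 0.000148, 1.08e-05, 1.67e-05 and 1.33e-05). RPSA, which is also known as the laminin receptor precursor, had 320.2 and 348 CPM in DEP libraries, 299 and 310.0 in DProP, 314 and 283 in DPP, 305 and 315 in Mix, and 427 and 460.4 in vehicle. Its log2 fold changes of -0.41, -0.54, -0.57 and -0.52 stood near the median of the family (edgeR adjusted p = 0.00166, 0.000175, 8.2e-05 and 0.00042). RPSA has many pseudogenes, whose counts came to 19.9% of its own.

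RPS23, at the decoding centre, was among the 3 members above 100 CPM with the smallest mean absolute change. Its log2 fold changes were -0.34, -0.45, -0.40 and -0.30 (edgeR adjusted p = 0.00485, 0.000601, 0.00101 and 0.0100). The DEP and Mix calls of RPS23 were lost in 2 and 3 alternatives. RPS10, RPS13, RPS27 and RPS28 passed the threshold in no comparison with vehicle by edgeR, which does not show that their levels were equal. RPS13 had 22.2 and 23.5 CPM in DEP libraries, 20.6 and 20.7 in DProP, 22.2 and 22.4 in DPP, 21.0 and 21.5 in Mix, and 19.7 and 22.8 in vehicle, and its groups overlapped.

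In the large subunit, 27 of 43 tested genes fell in DEP, 35 in DProP, 32 in DPP and 33 in Mix, with medians of -0.38, -0.50, -0.49 and -0.52. RPL38, which in mice is known for the translation of a subset of Hox mRNAs, had 72.97 and 80.6 CPM in DEP libraries, 64.7 and 66.7 in DProP, 70.005 and 69.9 in DPP, 70.9 and 74.1 in Mix, and 155 and 159 in vehicle. All treated libraries lay far below both vehicle libraries. The log2 fold change was -1.03 in DEP, -1.26 in DProP, -1.17 in DPP and -1.12 in Mix (SE 0.0632 to 0.0636, edgeR adjusted p = 6.75e-06, 1.13e-06, 1.13e-06 and 2.57e-06).

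RPL11 and RPL5, which form the 5S particle of the large subunit and bind MDM2 when free, were both lower. RPL11 had 131 and 139 CPM in DEP libraries, 109 and 119.7 in DProP, 121 and 116 in DPP, 121 and 121 in Mix, and 219 and 226 in vehicle. It fell by 0.72, 0.96, 0.91 and 0.88 on the log2 scale (edgeR adjusted p = 2.98e-05, 3.44e-06, 2.72e-06 and 8.41e-06). RPL5 had 87.3 and 96.3 CPM in DEP libraries, 77.0 and 76.3 in DProP, 87.1 and 82.5 in DPP, 82.6 and 84.1 in Mix, and 132 and 148 in vehicle. It fell by 0.61, 0.87, 0.72 and 0.75 (edgeR adjusted p = 0.000171, 1.06e-05, 2.01e-05 and 4.2e-05). RPL5 was named for this role after its values were seen.

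RPL12 stood against the rest of the large subunit. It binds rRNA at the base of the stalk, beside RPLP0. It had 23.6 and 23.9 CPM in DEP libraries, 21.0 and 21.1 in DProP, 21.4 and 23.6 in DPP, 20.9 and 19.7 in Mix, and 12.5 and 14.6 in vehicle. Every treated library lay above both vehicle libraries. The log2 fold change was 0.81 in DEP, 0.64 in DProP, 0.73 in DPP and 0.59 in Mix (SE 0.0953 to 0.0955, edgeR adjusted p = 0.000179, 0.000485, 0.000141 and 0.00163). Its level was low for a core ribosomal protein gene, at 40.8 CPM per kilobase over the groups, and its pseudogene counts were 2.38% of its own.

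RPL37A was the other large-subunit gene with a call for a rise. It had 50.7 and 55.9 CPM in DEP libraries, 52.999 and 53.3 in DProP, 52.5 and 56.995 in DPP, 51.0 and 46.4 in Mix, and 47.2 and 44.8 in vehicle. Its log2 fold change of 0.25 in DPP passed (edgeR adjusted p = 0.0223), whereas 0.21 in DEP, 0.21 in DProP and 0.08 in Mix did not (adjusted p = 0.0608, 0.0537 and 0.482). RPL37, a zinc-binding protein, had the smallest mean absolute change of the members above 100 CPM. It had 160.1 and 156 CPM in DEP libraries, 153 and 163 in DProP, 148 and 177 in DPP, 173 and 150.1 in Mix, and 154 and 143 in vehicle. Its values passed in no comparison by edgeR on the TMM scale, with log2 fold changes of 0.09 to 0.13 (SE 0.0899) and 95% intervals that reach from -0.11 to 0.33, but were called higher in DProP, DPP and Mix when libraries were scaled by their totals alone. RPL23A, which lies at the exit of the peptide tunnel, fell by 0.26, 0.37, 0.39 and 0.36 on the log2 scale (edgeR adjusted p = 0.00946, 0.00086, 0.000498 and 0.00219). Its DEP call was lost in 3 alternatives.

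**Figure D4:**
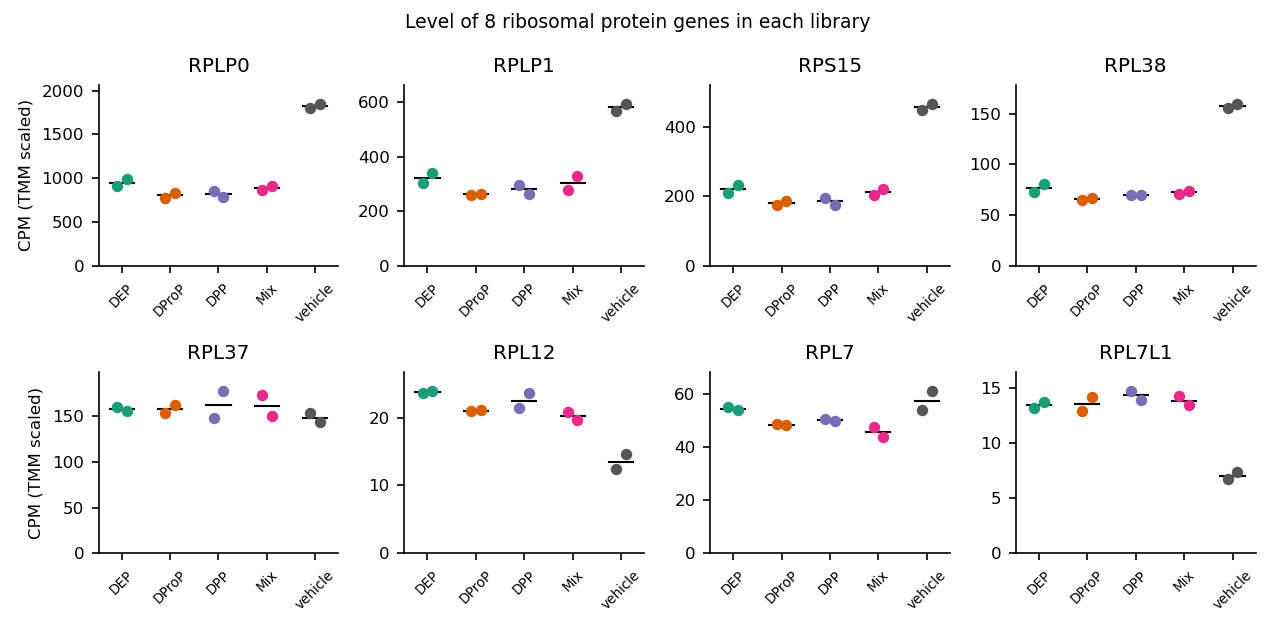
CPM of 8 ribosomal protein genes in each library (points; lines are group means, n = 2 libraries; each axis starts at 0). RPLP0, RPLP1, RPS15 and RPL38 are lower in every treated library than in vehicle, RPL12 and RPL7L1 are higher, and RPL37 overlaps vehicle.

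The paralogs, which differ from their partners in sequence or tissue, did not move as a block. RPL7L1, a factor in the assembly of the large subunit inside the nucleolus, had 13.2 and 13.7 CPM in DEP libraries, 12.9 and 14.2 in DProP, 14.7 and 13.96 in DPP, 14.3 and 13.4 in Mix, and 6.75 and 7.35 in vehicle. Its level in treated libraries was about double that in vehicle, the largest rise of the family, with log2 fold changes of 0.93, 0.95, 1.03 and 0.98 (SE 0.101, edgeR adjusted p = 0.000108, 5.36e-05, 2.02e-05 and 7.73e-05). Its partner RPL7 had log2 fold changes of -0.08, -0.25, -0.20 and -0.33, of which the last 3 passed (edgeR adjusted p = 0.448, 0.0205, 0.0491 and 0.00818). The counts of RPL7 were 3.27 to 4.17 times those of RPL7L1 in treated libraries and 8.02 and 8.33 times in vehicle, with no overlap.

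RPS27L, a p53 target in human cells, fell by 0.51, 0.60, 0.31 and 0.75 on the log2 scale (edgeR adjusted p = 0.00137, 0.000321, 0.0111 and 0.000123). It had 36.7 and 34.4 CPM in DEP libraries, 34.5 and 32.6 in DProP, 40.5 and 41.1 in DPP, 30.2 and 29.9 in Mix, and 54.98 and 46.4 in vehicle. The DPP call of RPS27L was lost in 3 alternatives. Its partner RPS27 passed in no comparison with vehicle by edgeR, with log2 fold changes of 0.10, -0.18, -0.11 and 0.07. RPS27 had 0.422 to 0.752 times the counts of RPS27L in treated libraries and 0.344 and 0.443 times in vehicle, and the DPP and vehicle ranges overlapped.

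RPL22L1, which in mice is repressed by Rpl22, had 12.2 and 12.9 CPM in DEP libraries, 9.28 and 13.5 in DProP, 13.3 and 14.7 in DPP, 10.3 and 9.94 in Mix, and 9.92 and 10.3 in vehicle. The DProP libraries were far apart. Only the log2 fold change of 0.47 in DPP passed (edgeR adjusted p = 0.0264), and this call was lost without DPP replicate 2 (0.41) or without either vehicle library (0.44 and 0.50), and with a GC and length correction (0.34). RPL22 had log2 fold changes of -0.15, -0.28, -0.12 and -0.34, of which those in DProP and Mix passed (edgeR adjusted p = 0.0154 and 0.00819). RPL26L1 fell by 0.25 in DProP and by 0.35 in Mix (edgeR adjusted p = 0.0379 and 0.0130). The DProP call was lost in 7 alternatives, among them leaving out either DProP library (-0.25 and -0.27) or vehicle replicate 2 (-0.17), and the Mix call in 3, among them leaving out Mix replicate 1 (-0.29) or vehicle replicate 2 (-0.27). RPL26 fell by 0.54, 0.67, 0.54 and 0.77 in DEP, DProP, DPP and Mix. RPL39L had 2.63 to 3.75 CPM in treated libraries and 4.29 and 3.69 in vehicle, and fell by 0.58 in DProP (edgeR adjusted p = 0.0339). That call was lost with DESeq2 (adjusted p = 0.0661) and without any 1 of the DProP or vehicle libraries (-0.69 to -0.47).

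Per kilobase of coding sequence, the members with the highest levels were RPL27A, RPLP0 and RPLP1. RPL27A had 1139, 1018, 1042 and 1009 CPM per kilobase in DEP, DProP, DPP and Mix and 1629 in vehicle. RPLP0 had 1001, 850.1, 865 and 937 in the treatments and 1917 in vehicle. RPLP1 had 939.7, 767.5, 821 and 890.3 in the treatments and 1700.3 in vehicle. RPLP0 thus stood above RPL27A in vehicle and below it in each treatment. The lowest tested members were RPL7L1, RPS7 and RPL39L, at 17.6, 18.2 and 18.96 CPM per kilobase in DEP and 9.21, 17.3 and 26.1 in vehicle. Differences in capture between these genes cannot be told apart from differences in expression. Replicates were close: the median coefficient of variation of a member between the libraries of a group was 3.90% in DEP, 3.15% in DProP, 4.82% in DPP, 3.33% in Mix and 4.85% in vehicle.

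The 53 tested members with a TOP run had medians of -0.39 in DEP, -0.54 in DProP, -0.54 in DPP and -0.51 in Mix, and 32, 42, 38 and 40 of them fell. The 13 tested members whose promoter entries hold no TOP run had medians of -0.15, -0.28, -0.21 and -0.35, and 6, 9, 8 and 9 of them fell. RPL12 and RPL7L1, whose start regions are printed above, belong to the second set, while RPL37A and RPL22L1, which rose in DPP, have a TOP run. The sets depend on the cutoff of 7 bases and on the window. The run of RPL12 has 6 bases and begins at base 1 of the annotated transcript. Those of RPS15 and RPL38 begin at base 10 and count as TOP runs. The second set also holds the paralogs RPS27L and RPL26L1. This is a description of annotated starts, and the start used in these cells was not measured.

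The treatments were also set against each other at the same labelled concentration, in 6 pairs, with p-values adjusted over all genes within each pair. If DProP is read in its usual sense, it differs from DEP by the length of the alkyl chains, propyl in place of ethyl. By edgeR no member passed between DProP and DEP, where 0.524% of all genes did. An unadjusted p below 0.05 was found for 49 members, all lower in DProP, and for 13.3% of all genes in either direction. DESeq2 called 16 members and 4.32% of all genes, and limma-voom 0 members and 0.498%. The median of the members was -0.16. RPS15 differed by -0.28 between DProP and DEP (95% interval -0.44 to -0.12), RPLP0 by -0.24 (-0.38 to -0.09) and RPL7L1 by 0.01 (-0.20 to 0.23). The intervals of RPS15 and RPLP0 leave out 0 before adjustment, and that of RPL7L1 includes it.

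Between DPP and DEP, where 2.93% of all genes passed, edgeR called no member, and 30 had an unadjusted p below 0.05 (15.9% of all genes). DESeq2 called 11 members (7.78% of all genes) and limma-voom 0 (2.87%). The median was -0.14. Between DPP and DProP, where 0.262% of all genes passed, edgeR called no member, and 6 had an unadjusted p below 0.05, a smaller share than the 12.1% of all genes. DESeq2 called 1 member (2.75% of all genes) and limma-voom 0 (0.241%). RPS15 differed by 0.03 there (95% interval -0.13 to 0.19) and RPLP0 by 0.02 (-0.12 to 0.17). Between Mix and DProP, where 6.89% passed, edgeR called no member, and 5 had an unadjusted p below 0.05, a smaller share than the 21.6% of all genes. DESeq2 called 1 member (12.9% of all genes) and limma-voom 0 (6.60%).

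Between Mix and DEP, 4 members were lower in Mix, where 3.86% of all genes passed in either direction. They were the large-subunit protein RPL23 (log2 fold change -0.25, 95% interval -0.38 to -0.13, edgeR adjusted p = 0.0339), the zinc-binding small-subunit protein RPS29 (-0.34, adjusted p = 0.0466), RPL26 (-0.23, adjusted p = 0.0487) and RPS25 (-0.33, adjusted p = 0.0493). All 4 were close to the threshold, and leaving out any single library of either group took the count to 0. DESeq2 called 19 members and 9.91% of all genes in that pair. Between Mix and DPP, where 17.3% of all genes passed, 5 members were lower in Mix. RPS27L differed by -0.44 (95% interval -0.62 to -0.26, edgeR adjusted p = 0.00402), RPL23 by -0.26 (adjusted p = 0.0102), RPL9 by -0.25 (adjusted p = 0.0137), RPL26 by -0.23 (adjusted p = 0.0185) and RPL22L1 by -0.47 (adjusted p = 0.0469). Without a library of either group, 1 to 4 members were called.

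Among other genes of translation, most of those whose mRNAs also carry TOP motifs fell. Of 22 such genes, 15 fell in DEP, 17 in DProP, 17 in DPP and 14 in Mix, with medians of -0.24, -0.39, -0.37 and -0.31. These were 68.2%, 77.3%, 77.3% and 63.6% of the list, against 13.5%, 17.5%, 19.5% and 10.7% of all tested genes. EEF1A1, the elongation factor that brings aminoacyl-tRNA, had 658 and 669 CPM in DEP libraries, 622 and 651 in DProP, 624 and 643 in DPP, 614 and 568 in Mix, and 1229 and 1193 in vehicle. It fell by 0.87, 0.93, 0.94 and 1.04 on the log2 scale (edgeR adjusted p = 1.22e-05, 2.88e-06, 1.78e-06 and 2.57e-06). EEF2, the translocation factor that binds at the stalk, fell by 0.75, 0.97, 0.90 and 0.92, and EEF1G, a subunit of the exchange factor of EEF1A1, by 0.58, 0.80, 0.74 and 0.75. RACK1, a scaffold protein of the small subunit that also stands in the list of ribosomal protein chaperones and assembly, fell by 0.54, 0.65, 0.67 and 0.66. FAU fell by 0.48, 0.38 and 0.36 in DProP, DPP and Mix, with -0.20 in DEP not passing (edgeR adjusted p = 0.116). The 1 gene of the list that rose was NPM1, a nucleolar chaperone of ribosome assembly, by 0.44, 0.46, 0.56 and 0.33 (edgeR adjusted p = 0.00405, 0.00212, 0.000496 and 0.0217). The Mix calls of NPM1 and FAU were each lost in 5 alternatives, among them leaving out Mix replicate 1 (0.25 for NPM1 and -0.35 for FAU) or vehicle replicate 2 (0.30 and -0.29). For NPM1 vehicle replicate 1 (0.35) and for FAU Mix replicate 2 (-0.38) did so too, and the DPP call of FAU was lost without DPP replicate 2 (-0.24). NPM1 and FAU were named after their values were seen.

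The remaining ribosome lists held genes that fell and genes that rose. Of all tested genes, 13.5%, 17.5%, 19.5% and 10.7% fell in DEP, DProP, DPP and Mix, and 10.1%, 14.7%, 16.7% and 9.71% rose. Of 78 mitochondrial ribosomal protein genes, 5, 10, 9 and 8 fell and 7, 8, 11 and 7 rose in DEP, DProP, DPP and Mix. Falls were 6.41%, 12.8%, 11.5% and 10.3% of the list and rises 8.97%, 10.3%, 14.1% and 8.97%. Each share lay below that of all tested genes. The medians were 0.07, -0.05, 0.03 and -0.04. MRPL39, a protein of the mitochondrial large subunit, rose by 0.60, 0.60, 0.70 and 0.45 on the log2 scale, and MRPS12, of the mitochondrial small subunit, fell by 0.39, 0.57, 0.49 and 0.42. Of 60 ribosome biogenesis genes, 8, 14, 9 and 10 fell and 7, 11, 14 and 8 rose. Falls were 13.3%, 23.3%, 15% and 16.7% of the list and rises 11.7%, 18.3%, 23.3% and 13.3%. NOP53, an assembly factor of the large subunit, fell by 0.49, 0.75, 0.80 and 0.49, and NCL, which encodes nucleolin, by 0.36, 0.45, 0.29 and 0.53. Of 15 RNA polymerase I genes, 1, 1, 2 and 2 fell and 1, 1, 4 and 1 rose. Falls were 6.67%, 6.67%, 13.3% and 13.3% of the list and rises 6.67%, 6.67%, 26.7% and 6.67%. UBTF, the factor that binds rRNA gene promoters, fell by 0.48, 0.65, 0.67 and 0.38. TTF1 rose by 0.45, 0.45 and 0.35 in DEP, DProP and DPP, with 0.16 in Mix (edgeR adjusted p = 0.0047, 0.00316, 0.0119 and 0.246). POLR1A rose by 0.21 in DPP (edgeR adjusted p = 0.0181), with 0.07, 0.15 and 0.16 in DEP, DProP and Mix not passing. The DPP calls of TTF1 and POLR1A and the Mix call of UBTF were each lost in 2 alternatives, and the DEP call of TTF1 in 1. The DEP and DPP calls of NCL were lost in 1 and 3 alternatives, and the DEP and Mix calls of MRPS12 in 5 and 4.

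Of 9 genes for chaperones and assembly of ribosomal proteins, 2, 2, 3 and 1 fell in DEP, DProP, DPP and Mix. These were 22.2%, 22.2%, 33.3% and 11.1% of the list. Among all tested genes 13.5%, 17.5%, 19.5% and 10.7% fell, and 10.1%, 14.7%, 16.7% and 9.71% rose. Besides RACK1, TSR2, the chaperone of RPS26, fell by 0.33 in DProP and 0.30 in DPP, while PDCD2, the chaperone of RPS2, rose by 0.32 in DEP and 0.36 in DPP. The DProP and DPP calls of TSR2 were lost in 5 and 3 alternatives, and the DEP call of PDCD2 in 2. Of 28 initiation factor genes, 5, 8, 5 and 5 fell, and 1 rose in DEP, 2 in DProP and 5 in DPP. The falls were 17.9%, 28.6%, 17.9% and 17.9% of the list. EIF4G2 fell by 0.40, 0.44, 0.33 and 0.48. Of 14 long non-coding RNAs that host small nucleolar RNAs, a class known for TOP starts, 2, 2, 3 and 2 fell and 6, 5, 6 and 3 rose. Falls were 14.3%, 14.3%, 21.4% and 14.3% of the list and rises 42.9%, 35.7%, 42.9% and 21.4%. SNHG5 rose by 1.37, 1.23, 1.71 and 1.03, while SNHG29 fell by 0.33, 0.46, 0.52 and 0.45. The level of SNHG5 was low, at 1.34 to 2.23 CPM in treated libraries and 0.563 and 0.756 in vehicle. Its Mix call was lost in 1 alternative. Capture of non-coding RNA cannot be told apart from expression here. Of 21 genes of the mTOR pathway and of TOP regulation, 5, 5, 6 and 1 fell and 1, 1, 5 and 1 rose. Falls were 23.8%, 23.8%, 28.6% and 4.76% of the list and rises 4.76%, 4.76%, 23.8% and 4.76%. TSC2, an inhibitor of mTOR, fell by 0.36, 0.38 and 0.49 in DEP, DProP and DPP, with -0.16 in Mix (edgeR adjusted p = 0.0504). TSC1 rose by 0.25, 0.32, 0.33 and 0.22 (edgeR adjusted p = 0.0172, 0.00343, 0.00259 and 0.0347). MLST8 fell by 0.24, 0.24 and 0.43 in DEP, DProP and DPP, with -0.14 in Mix (edgeR adjusted p = 0.0128, 0.0099, 0.000224 and 0.113). The DEP and Mix calls of TSC1 were lost in 2 and 4 alternatives, and the DEP and DProP calls of MLST8 in 4 each. Of 13 p53 checkpoint genes, 4 rose in DEP, 6 in DProP and 8 in DPP, with medians of 0.11, 0.15 and 0.27, while the median in Mix was 0.01. These rises were 30.8%, 46.2% and 61.5% of the list. CDKN1A, the cell cycle inhibitor p21, rose by 0.45, 0.43 and 0.78 in DEP, DProP and DPP, with 0.15 in Mix (edgeR adjusted p = 0.0894).

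**Figure D5:**
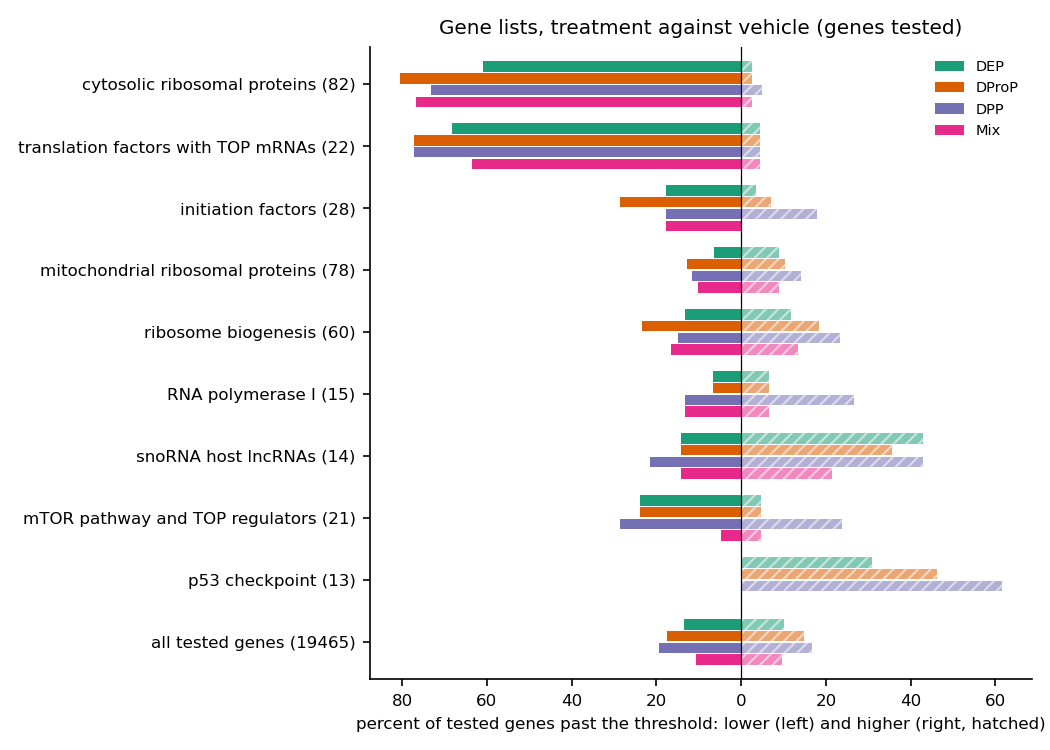
Percent of the tested genes of each list past the adjusted p threshold against vehicle, lower to the left and higher to the right (hatched), with 1 bar per treatment and the number of genes tested in brackets. Among the lists drawn, which leave out the cell type markers, the cytosolic ribosomal protein genes and the translation factors with TOP mRNAs extend furthest to the left, and all tested genes are at the bottom.

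Markers of cell types also differed between the treated and vehicle libraries. The shares of all tested genes to set beside them were 13.5%, 17.5%, 19.5% and 10.7% for falls. For rises they were 10.1%, 14.7%, 16.7% and 9.71%. Of 10 progenitor markers, 10, 10, 10 and 7 fell in DEP, DProP, DPP and Mix, and their summed level was 4502 to 4967 CPM in treated libraries and 7605 and 7666 in vehicle. Of 9 astrocyte markers, 6, 6, 6 and 4 fell and 1 rose in Mix, with sums of 4928 to 5718 CPM in treated libraries and 9296 and 9512 in vehicle. Of 12 neuronal markers, 6, 8, 8 and 5 fell, and 1 rose in DProP, 2 in DPP and 2 in Mix, with sums of 1214 to 1870.1 CPM in treated libraries and 2211 and 2281 in vehicle. Of 7 tested oligodendrocyte markers, 2, 2, 2 and 2 fell and 1 rose in Mix, with sums of 637 to 862 CPM in treated libraries and 1206 and 1231 in vehicle. Of 7 tested mesenchymal or smooth muscle markers, 5, 5, 4 and 4 fell, with sums of 71.9 to 98.9 CPM in treated libraries and 172 and 173 in vehicle. Of 8 cell cycle markers, 1 rose in DEP, 4 in DProP and 2 in DPP, with medians of 0.20, 0.94 and 0.57, while the median in Mix was -0.06. They summed to 137 to 359 CPM in treated libraries and 156 and 158 in vehicle. The DProP libraries were far apart for some of these markers. CDK1 had 7.88 and 17.7 CPM there and 6.89 and 6.14 in vehicle. CCNB1 had 12.03 and 23.9 CPM in DProP and 10.4 and 8.91 in vehicle. The DProP calls of CCNB1 and CDK1 were lost in 6 and 8 alternatives. TYMS, at 19.9 and 29.03 CPM in DProP, lay above vehicle (12.9 and 13.8) in both libraries. None of the tested markers was at 0 in all libraries. The part of a shift in cell types in the ribosomal protein result was not tested.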

How the data were processed

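The authors deposited a table of raw read counts per NCBI gene identifier, neither normalised nor filtered, for 10 libraries (2 in each of 5 groups). The submitters' processing notes list the build GRCh38 and, as tools, R 4.3.2 with edgeR 4.0.9, StringTie 2.1.3b, HISAT2 2.1.0, Trimmomatic 0.38 and FastQC. The counting tool, strandedness and treatment of multi-mapping reads were not given in the sources used here.

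From these counts, genes with enough counts (filterByExpr by group) were fitted with edgeR 4.0.16 in R 4.3.3, with TMM scaling and robust quasi-likelihood dispersion, the 5 group means being estimated from the 10 libraries at once. This left 5 residual degrees of freedom. The common biological coefficient of variation was 9.40%. P-values were adjusted by Benjamini-Hochberg over all tested genes in each comparison, with a threshold of 0.05. Shares were compared by an exact permutation test in scipy 1.17.1, which treated each library as a separate unit. The scripts were tested on simulated data.

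Members and lists were chosen with earlier results of these data known. Named members were the 6 largest decreases and 3 largest increases against vehicle with libraries that did not overlap, up to 3 called members per pair of treatments, all paralogs, the stalk genes and RPSA, the 3 highest and 3 lowest per coding length, the 3 with the smallest mean change above 100 CPM, and 3 genes per pathway list. RPL5, RPL37A, RPS13, NPM1, FAU, MRPS12 and the split at 100 CPM were chosen after values were seen. Alternatives were other scalings and filters, limma-voom (limma 3.58.1), DESeq2 1.42.0, a GC and length correction, a fit of the compared groups, a replicate block, a 1.5-fold minimum and leaving out each library.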

Additional observations from a re-analysis of the deposited data

How the results depend on the processing

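The counts of called members against vehicle (52, 68, 64 and 65 in DEP, DProP, DPP and Mix) stayed within 1.5 times under the alternatives run, except with a 1.5-fold minimum, which left 5, 18, 13 and 9. Besides leaving out a library, 2 settings moved medians by more than the spread between libraries (SD 0.0503). With library size alone they were -0.22, -0.36, -0.34 and -0.37, while the median of all genes was 0.16, 0.19, 0.18 and 0.16, and with a GC and length correction the Mix median was -0.45. Leaving out 1 library gave medians of -0.40 to -0.32 in DEP, -0.57 to -0.48 in DProP, -0.56 to -0.43 in DPP and -0.55 to -0.44 in Mix. The difference in the family's share was -0.426 and -0.356 percentage points without vehicle replicate 1 and without vehicle replicate 2 (exact permutation p = 0.111 in both, the smallest possible).

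Counts between treatments were small and unstable. Between DProP and DEP, where edgeR called 0, a stricter filter gave 1, DESeq2 16, a fit of the compared groups 8 and protein-coding genes only 1. Between DPP and DEP, also 0, relative log expression factors, a stricter filter, a GC and length correction, a fit of the compared groups, removal of rRNA and mitochondrially encoded genes and protein-coding genes only gave 1 each, DESeq2 gave 11, and leaving out 1 library gave 0 to 4. Between Mix and DEP, where 4 were called, no filter gave 1, a stricter filter 11, limma-voom 1, DESeq2 19, a fit of the compared groups 11, protein-coding genes only 14, and a 1.5-fold minimum or leaving out any 1 library of either group gave 0. DESeq2 called 1 member between DPP and DProP and 1 between Mix and DProP, where a GC and length correction also gave 1. Between Mix and DPP, where 5 were called, a GC and length correction gave 9, protein-coding genes only 8, a 1.5-fold minimum 0, and leaving out 1 library 1 to 4. The cause of these moves was not tested.

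The replicate number as a block left 1 of the 4 calls between Mix and DEP. Whether the numbers pair the libraries is not known. Replicate differences over all tested genes correlated by -0.0465 to 0.0471 over 10 pairs of groups. Each difference rests on 2 libraries and includes counting error, so these values cannot exclude a pairing. Among single named genes, 4382 values kept direction and side of the threshold, 39 newly passed, 173 no longer passed and 2 changed sign. Both came with a GC and length correction of a mitochondrial ribosomal protein gene: MRPL41, DProP against vehicle, at 0.0796 and MRPL41, Mix against vehicle, at 0.0325. Removal of rRNA and mitochondrially encoded genes, protein-coding genes only, added pseudogene counts and a fit that drops the vehicle libraries were chosen after seeing the data. With 2 libraries per group, the p-values rest on the spread pooled over the 5 groups.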
